A study of Mus musculus with 7 samples.

Results

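The genes described here encode the enzymes that break down glucose, run the tricarboxylic acid (TCA) cycle and prepare or oxidise fatty acids, read in embryonic mouse hearts that carried or lacked Myc. They were chosen by symbol, from hexokinases to lactate dehydrogenases for the sugar branch, pyruvate dehydrogenase and its kinases as the link, isocitrate and malate dehydrogenases, Ogdh and Suclg genes among others for the TCA branch, and acyl-CoA dehydrogenases, acyl-CoA synthetases, carnitine palmitoyltransferases, thiolases and fatty acid binding proteins for the fat branch. The array targets carry no gene names, so a target was named when the number in its identifier, after 1 or 2 leading zeros, was an NCBI mouse gene identifier. This gave 54 genes out of 7409 named in the same way, with 25 in the sugar branch, 1 (Pdhb) at the pyruvate dehydrogenase link, 7 in the TCA branch and 21 in the fat branch. Of the 54, 35 were tested because 1 of their targets was detected on at least 3 of the 7 arrays.

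Hearts were taken from wild-type embryos (3 samples) and Myc-null embryos (4 samples), each hybridised to its own array. The titles give the stage as E13.5, the source label spans a wider range of stages around it, and a free-text label that speaks of embryos before their genome is active matches neither and was not used. The labels do not state the strain, how or in which cells Myc was removed, or whether the samples came from separate litters, so that p-values measure only the spread between these 7 samples. The protocols speak of myocyte RNA but describe whole dissected hearts. The heart muscle genes Myh7 and Myl7 were detected on every array, at normalized signals of 42504 to 72119 and 7628 to 17149.

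Glycolysis splits glucose into pyruvate in the cytosol, and lactate dehydrogenase turns pyruvate into lactate, which lets the pathway run when oxygen is scarce. Pyruvate dehydrogenase feeds the TCA cycle in the mitochondrion, and fatty acids enter the same cycle after activation to acyl-CoA and beta-oxidation. The embryonic heart relies largely on glucose and lactate and turns to fatty acids around and after birth. Myc, a transcription factor that promotes growth, is known from other cells to bind and activate glycolytic genes, among them Ldha.

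None of the 35 genes differed between Myc-null and wild-type hearts after adjustment. By limma, 0 of the 35 had an adjusted p under 0.05, where the background was 0% of 9066 tested units (a unit is a named gene or an unnamed target). At an unadjusted p under 0.05 there was 1 member, Acadsb, against a background of 5.35% of units. Only for 1 member, Acss1, did the 4 Myc-null values not overlap the 3 wild-type values, against a background of 6.83%. The adjusted p of the members ran from 0.760 to 0.999. In 27 of the 35 genes the difference of the means was smaller than the spread between replicates (pooled within-group SD). The same held for 70.2% of all units. The median 95% interval of the 35 genes reached 0.46 on the log2 scale to either side. These intervals are not adjusted for the number of units. Changes well below that size were not detectable with 7 arrays, and larger ones, up to 0.69 (Acsl4; limma adjusted p = 0.760), did not pass either. An interval that spans 0 does not show that expression was equal.

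The branches differed in direction without any gene passing the test. In the sugar branch 14 of 19 tested genes had lower Myc-null means and 5 higher, with a median log2 difference of -0.09. Without Gpihbp1, which the symbol rule admits but which encodes an endothelial carrier of lipoprotein lipase, 13 of 18 were lower. In the TCA branch 2 of 5 were lower and the median was 0.16, and in the fat branch 3 of 10 were lower and the median was 0.11. Of all 9066 units 44.8% were lower, and their median was 0.03. The sugar and fat directions rested on single arrays, while the TCA median stayed above 0 when each array was left out in turn, down to 0.03 without wild-type 3. Without Myc-null 2, 7 of 19 sugar genes were lower and the branch median was 0.04. Without wild-type 3, 6 of 10 fat genes were lower and the fat median was -0.03. Without both of these arrays, 9 of 19 sugar genes and 3 of 10 fat genes were lower. After quantile normalization 15 of 19 sugar genes and 4 of 10 fat genes were lower, beside 55.0% of all units.

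**Figure D1:**
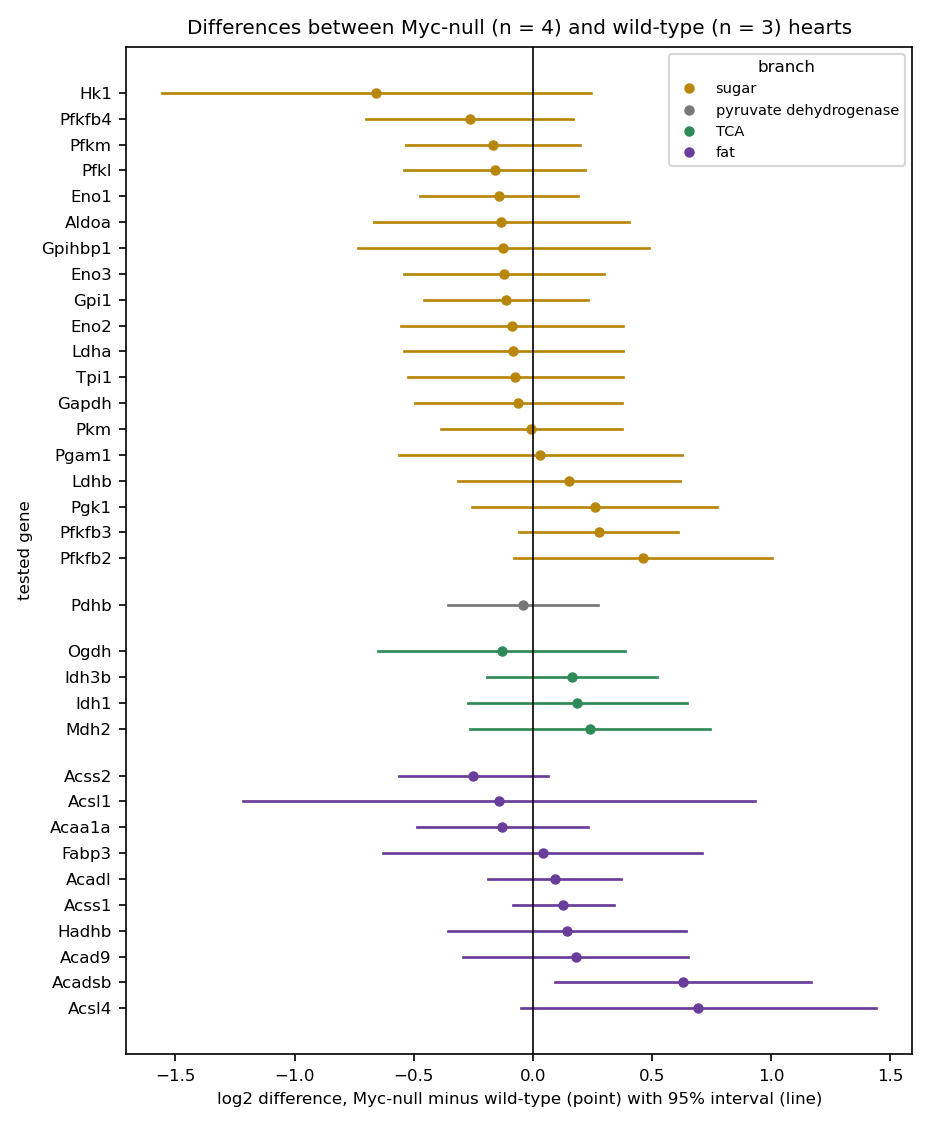
Log2 difference between Myc-null (n = 4) and wild-type (n = 3) means for 34 of the 35 tested genes, as a point with its 95% interval from limma, coloured by branch. The interval excludes 0 for Acadsb alone, before any adjustment, and most sugar genes lie a little to the left of 0.

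Glucose is first trapped in the cell by hexokinase. Hk1 had the largest difference of the sugar branch. Its signal was 252, 307 and 255 in wild-type 1, 2 and 3, and 243, 87.1, 254 and 161 in Myc-null 1 to 4. Myc-null 2 and 4 were low, while Myc-null 1 and 3 lay at the level of the wild-type arrays, so the groups overlapped. The log2 difference was -0.66 (SE 0.38; limma adjusted p = 0.760), and it was -0.33 without Myc-null 2.

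The committed step of glycolysis is phosphofructokinase, made of muscle (Pfkm) and liver (Pfkl) subunits here. These subunits, Aldoa, Ldha, Ldhb, Eno3, Gpi1, Ogdh and Acsl1 were picked for a full account after their values were seen. Pfkm measured 4508, 4603 and 4499 in wild-type hearts and 4451, 3139, 4762 and 4005 in Myc-null 1 to 4. The wild-type values were almost equal and Myc-null 2 was the lowest. Pfkl measured 5465, 5699 and 5050 in wild-type hearts and 5477, 3705, 4845 and 5525 in Myc-null 1 to 4. Again Myc-null 2 was lowest, and Myc-null 1 and 4 lay within the wild-type range. The log2 differences were -0.17 (SE 0.15) for Pfkm and -0.16 (SE 0.16) for Pfkl, and without Myc-null 2 they were -0.05 and -0.03. The platelet form Pfkp was detected on 0 arrays.

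Pfkfb2, Pfkfb3 and Pfkfb4 encode bifunctional enzymes that make or remove fructose 2,6-bisphosphate, the activator of phosphofructokinase. Pfkfb2 and Pfkfb3 had higher and Pfkfb4 lower Myc-null means. Pfkfb2 had a signal of 167, 176 and 100 in wild-type 1 to 3 and 177, 224, 171 and 224 in Myc-null 1 to 4. Wild-type 3 was far below the rest, and Myc-null 2 and 4 were the highest. Pfkfb3 measured 703, 812 and 608 in wild-type 1 to 3 and 790, 935, 757 and 935 in Myc-null 1 to 4. The order of arrays was the same at both ends, with wild-type 3 lowest and Myc-null 2 and 4 highest. Their log2 differences were 0.46 (SE 0.23) and 0.28 (SE 0.14), each with a limma adjusted p of 0.760. Without wild-type 3 they were 0.20 and 0.17. Pfkfb4 measured 97.5, 91.0 and 99.8 in wild-type hearts and 76.3, 110, 74.4 and 65.2 in Myc-null 1 to 4. Myc-null 2 was the highest array here too, and the other 3 Myc-null arrays lay below every wild-type array. The log2 difference of Pfkfb4 was -0.27 (SE 0.18), -0.42 without Myc-null 2 and -0.17 without Myc-null 4. Pfkfb1, the liver form, was detected on 0 arrays.

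Aldoa, Tpi1 and Gapdh spanned a wider range among the 4 Myc-null hearts than among the 3 wild-type hearts. Aldoa, which cleaves fructose 1,6-bisphosphate, measured 11431, 15058 and 10611 in wild-type 1 to 3 and 11338, 8649, 10164 and 15515 in Myc-null 1 to 4. Myc-null 2 was the lowest and Myc-null 4 the highest of the 7. Tpi1, which interconverts the 3-carbon products, measured 14390, 16073 and 12216 in wild-type hearts and 13946, 10293, 13235 and 17135 in Myc-null 1 to 4. The same Myc-null arrays stood at both ends. Gapdh, the next enzyme and a common reference gene, measured 29440, 32434 and 24998 in wild-type hearts and 26986, 22560, 26156 and 36382 in Myc-null 1 to 4. Its deposited signal therefore varied 1.61-fold among Myc-null hearts, with a log2 difference between groups of -0.06 (SE 0.18). After quantile normalization the log2 signal of Gapdh in Myc-null hearts ran only from -0.22 to 0.03 around its median over arrays. Myc-null 2 was then still lowest for Aldoa, Tpi1 and Gapdh, but Myc-null 4 was not the highest array for any of them.

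Ldha and Ldhb, the muscle-type and heart-type subunits of lactate dehydrogenase, had differences of opposite sign. Ldha measured 9892, 10127 and 9745 in wild-type hearts and 8584, 7524, 8991 and 13234 in Myc-null 1 to 4. Myc-null 1, 2 and 3 lay below all wild-type arrays and Myc-null 4 above them, which leaves a log2 difference of -0.08 (SE 0.19). Without Myc-null 4 it was -0.25. Ldhb measured 6419, 6878 and 5077 in wild-type hearts and 7096, 5070, 6811 and 8417 in Myc-null 1 to 4, a difference of 0.15 (SE 0.20) that was 0.02 without wild-type 3. Ldhb was again lowest in Myc-null 2 and highest in Myc-null 4.

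The remaining sugar genes had small differences. The enolases Eno1, Eno2 and Eno3 differed by -0.14, -0.09 and -0.12. Eno3, the muscle enolase, measured 4200, 3981 and 4015 in wild-type hearts and 4039, 2705, 4160 and 4296 in Myc-null 1 to 4, so that a single array set its difference. Gpi1, which isomerises glucose 6-phosphate, differed by -0.11 (-0.02 without Myc-null 2) and Pkm, the muscle-type pyruvate kinase that yields pyruvate, by -0.01. Pgk1, a kinase step that yields ATP, differed by 0.26 (0.08 without wild-type 3), and Pgam1, the mutase after it, by 0.03. Both the lowest and the highest Pgam1 signals were in wild-type hearts. The sign of Pgam1 turned after quantile normalization, median scaling and neqc (limma's background correction and quantile step on the raw signals). Gpihbp1 differed by -0.13. Gapdhs, Ldhal6b and Ldhd were detected on 0 arrays.

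**Figure D2:**
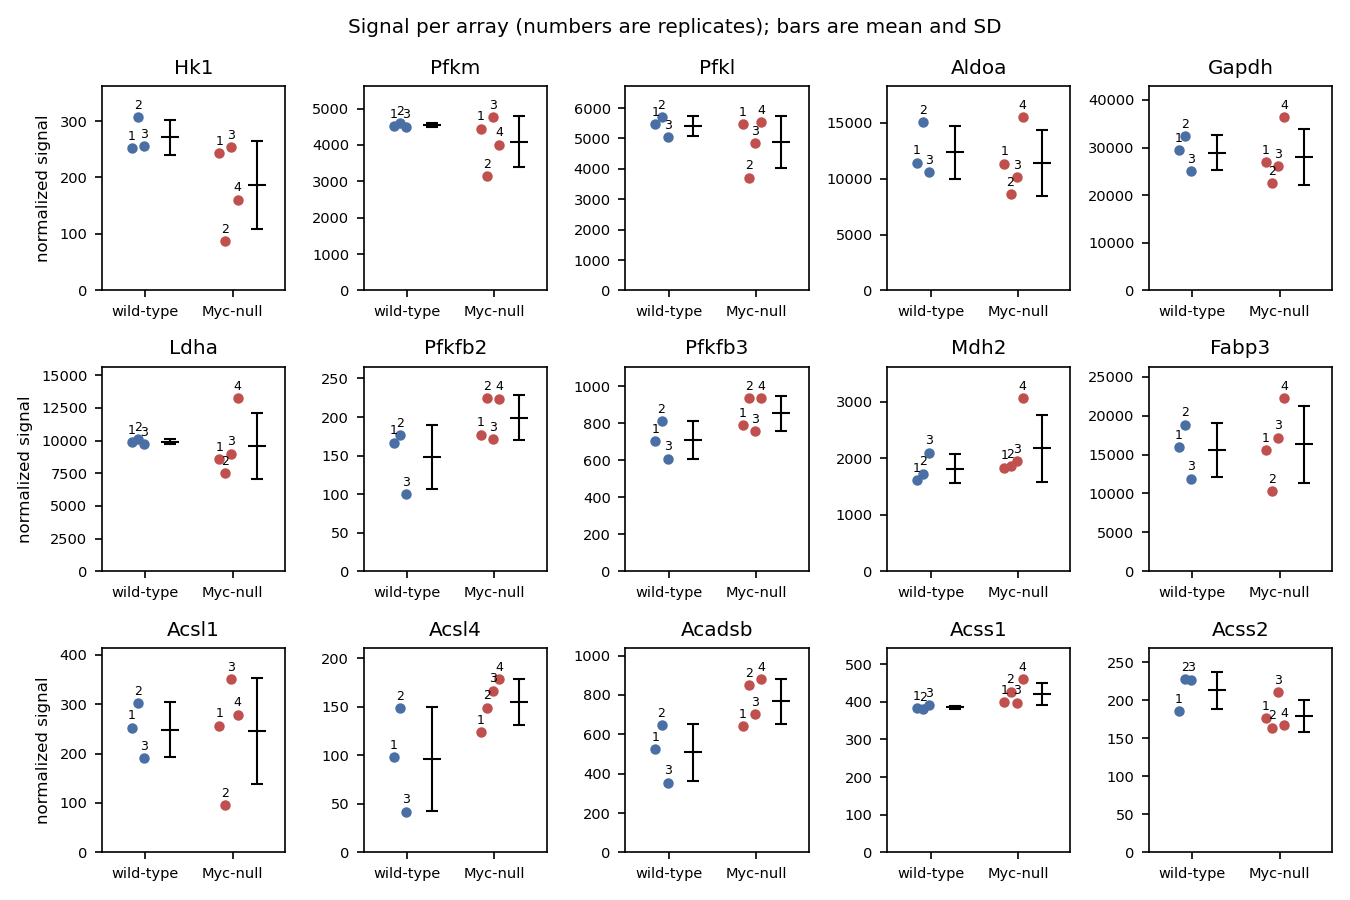
Normalized signal (vertical axis, starting at 0) of 15 genes on each array, with points numbered by replicate, wild-type in blue and Myc-null in red, and a bar for the mean and SD (n = 3 and 4). Myc-null 2 is the lowest point for Hk1, Pfkm, Pfkl, Aldoa, Gapdh, Ldha, Fabp3, Acsl1 and Acss2, and wild-type 3 the lowest for Pfkfb2, Pfkfb3, Acsl4 and Acadsb.

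Single Myc-null hearts stood at the ends of the range for most sugar genes. For 13 of 19 sugar genes the lowest array was Myc-null 2, where it was lowest for 15.5% of all units. It lay below all 3 wild-type arrays for 14 of the 19, against 23.2% of all units. Myc-null 4 was the highest array for 12 of 19, against 23.0% of units. The low values of Myc-null 2 were also seen under another scaling. After quantile normalization it was lowest for 12 of 19 sugar genes, against 17.9% of units. Myc-null 4 was then highest for 5 of 19, against 15.6% of units. The deposited signal of Myc-null 4 was a straight line of its raw signal with a slope of 1.43, the steepest of the 7 arrays, and its median over detected targets was also the highest, 309 against 218 to 284. As deposited, the median deviation of sugar genes from each gene's median over arrays was -0.37 in Myc-null 2 and 0.30 in Myc-null 4, and between -0.06 and 0.03 on the other arrays. After quantile normalization these were -0.29, 0.07 and -0.06 to 0.02.

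**Figure D3:**
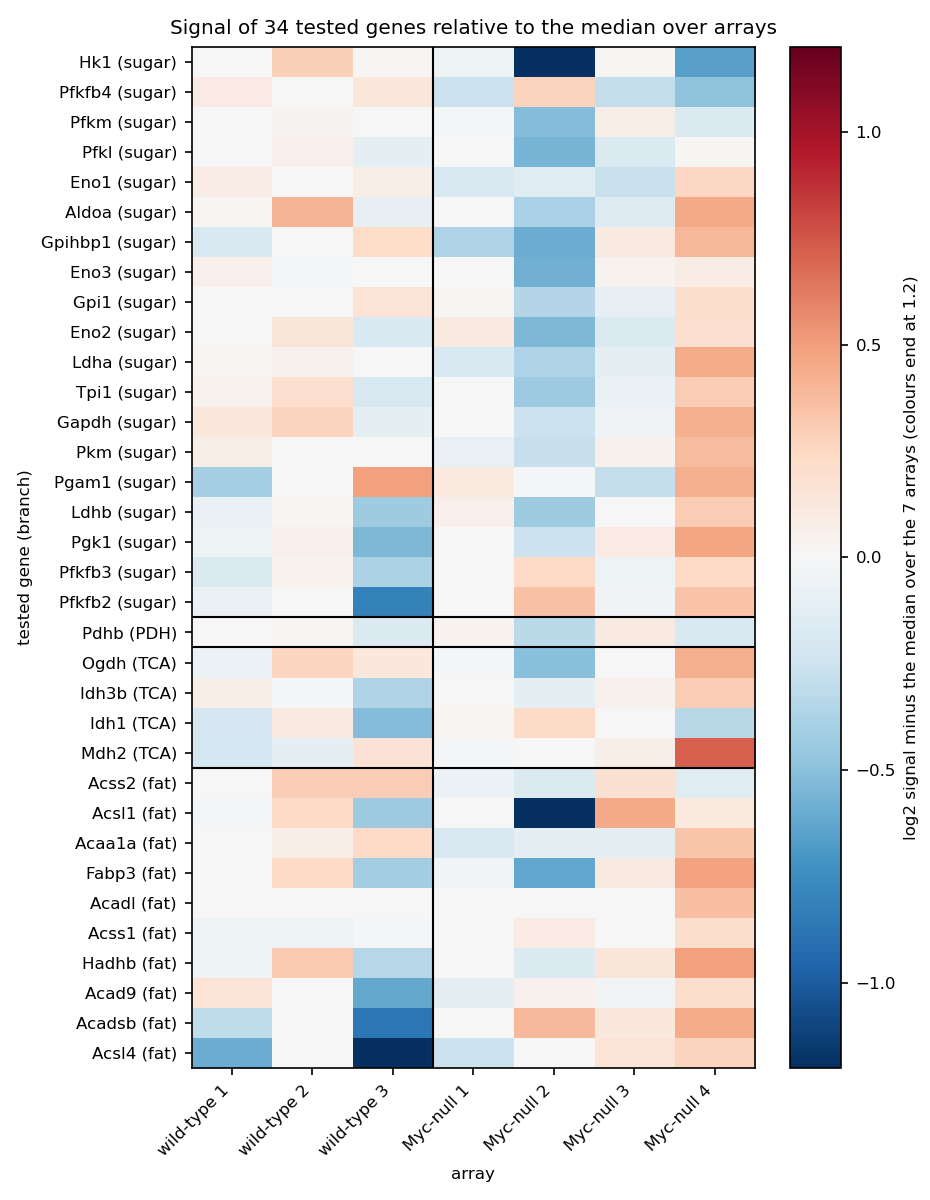
Log2 signal of 34 of the 35 tested genes (rows, by branch and then by difference) on each array (columns) minus the gene's median over the 7 arrays, with blue below and red above. The Myc-null 2 column is blue through most sugar genes and pale or red at Pfkfb2, Pfkfb3 and Pfkfb4, and the wild-type 3 column is darkest at Pfkfb2, Acadsb and Acsl4.

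Where a gene had a further detected target, it mostly repeated this pattern. The other targets of Gpi1, Pfkm and Tpi1 were again lowest in Myc-null 2, and their log2 differences of -0.37, -0.28 and -0.21 had the same sign as the brightest target. The other Gpi1 target measured 1335, 1262 and 854 in wild-type hearts and 1159, 431, 1230 and 955 in Myc-null 1 to 4. That drop in Myc-null 2 was deeper than in the brightest Gpi1 target, which measured 4662, 4662 and 5235 against 4694, 3664, 4360 and 5383. A further Gapdh target, named through its RefSeq accession, differed by 0.02 and was lowest in Myc-null 1. Target sequences were not used here, so signal from pseudogene or paralog transcripts, which are known for genes such as Gapdh and Ldha, cannot be told apart.

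Markers of some other tissues were also high in Myc-null 2, and those of others were not. Of 5 erythroid genes with a target, out of 12 listed, all were detected, and their summed signal was 122150 in Myc-null 2, against 84731 to 92795 in the other Myc-null and 77480 to 92921 in the wild-type hearts. Hba-x (24307), Hbb-y (20136), Hbb-b2 (14100) and Hbb-b1 (379) were highest in Myc-null 2. Hba-a1, the largest part of the sum, was 63230 there, inside the range of the other arrays (51703 to 68203). Of 10 cartilage genes 3 had a target, and their sum was 2494 in Myc-null 2, against 310 to 573 in the other Myc-null and 348 to 721 in the wild-type hearts. The neural sum was also highest in Myc-null 2, at 614, but its 2 tested genes did not stand out there. Gap43 was 452 in both Myc-null 2 and wild-type 3, and Tubb3 was 41.1 in Myc-null 2 against 75.1 in wild-type 2. Part of this sum came from targets detected on too few arrays to be tested. The endothelial sum (2853) and the liver and gut sum (298) were lowest there among Myc-null hearts and inside the wild-type range. The mesenchymal sum (11636) lay below all wild-type hearts, but its members did not move together. Eln (3845) was below all wild-type hearts, Vcan (256) was highest of the 7 arrays, and Col1a1 (2718) and Col3a1 (882) were second to wild-type 3. The median deviation of the tested mesenchymal genes was 0.31 in Myc-null 2. The leukocyte and epicardial sums, 609 and 2186, did not exceed those of wild-type 3, 610 and 2469. They did lie above those of every array but wild-type 3, the next being 448 (leukocyte, Myc-null 3) and 1954 (epicardial, wild-type 1). The 6 heart muscle genes with a target, out of 18, summed to 60076 in Myc-null 2, against 68583 to 90759 in the other Myc-null and 58302 to 76965 in the wild-type hearts, and Ryr2 was detected on 0 arrays. Most of this heart muscle sum was Myh7, at 43607 in Myc-null 2. Of the tested heart muscle genes only Tbx5 was lowest in Myc-null 2, and Myl7 (14754) and Myh6 (1383) lay inside the range of the other arrays. The part of these tissues in the low sugar genes was not tested. In such bulk samples fewer cells of a type and less RNA per cell cannot be told apart. The 4 Myc-null samples also shared the far positions of the single chip, so position and genotype cannot be told apart.

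Pdhb, the beta subunit of the E1 enzyme of pyruvate dehydrogenase, measured 148, 151 and 132 in wild-type hearts and 153, 119, 159 and 131 in Myc-null 1 to 4. The groups overlapped, with Myc-null 2 lowest, and the log2 difference was -0.04 (SE 0.13). No pyruvate dehydrogenase kinase had a target that could be named.

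Within the TCA branch Ogdh behaved like the sugar genes, and Mdh2, Idh1 and Idh3b did not. Ogdh, the E1 component of the 2-oxoglutarate dehydrogenase complex, measured 1393, 1752 and 1594 in wild-type hearts and 1438, 1030, 1462 and 1962 in Myc-null 1 to 4. Myc-null 2 lay below every wild-type array and Myc-null 4 above them, and the log2 difference was -0.13 (SE 0.22).

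Mdh2, the mitochondrial malate dehydrogenase that closes the cycle, had the largest difference of the branch. It measured 1611, 1726 and 2099 in wild-type hearts and 1835, 1861, 1950 and 3063 in Myc-null 1 to 4. Only Myc-null 4 lay outside the wild-type range, and the difference of 0.24 (SE 0.21; limma adjusted p = 0.781) was 0.06 without it. Idh3b, a subunit of the NAD-dependent isocitrate dehydrogenase of the cycle, measured 2204, 2074 and 1629 in wild-type hearts and 2097, 1942, 2169 and 2590 in Myc-null 1 to 4. Idh1, the cytosolic NADP-dependent isocitrate dehydrogenase, measured 390, 484 and 312 in wild-type hearts and 457, 527, 448 and 355 in Myc-null 1 to 4. Both were lowest in wild-type 3, and they differed in which Myc-null heart was highest, Myc-null 4 for Idh3b and Myc-null 2 for Idh1. Their differences were 0.16 (SE 0.15) and 0.19 (SE 0.19), and without wild-type 3 they were 0.03 and 0.03. Mdh1 was detected on 2 arrays and Suclg2 on 1, and neither was tested.

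The fat branch opens with uptake and activation. Fabp3, the heart fatty acid binding protein that carries fatty acids through the cytosol, measured 15927, 18825 and 11923 in wild-type hearts and 15536, 10330, 17152 and 22231 in Myc-null 1 to 4. It was lowest in Myc-null 2 and highest in Myc-null 4, and its difference of 0.04 (SE 0.28) turned negative after quantile normalization, median scaling and neqc. Fabp4, the adipocyte and endothelial form, and Fabp5 and Fabp6 were detected on 0 arrays.

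Acsl1 and Acsl4, which couple long-chain fatty acids to coenzyme A, were the most variable members beside Hk1 and disagreed between arrays. Acsl1, the main form of the adult heart, measured 252, 302 and 190 in wild-type hearts and 256, 95.5, 350 and 279 in Myc-null 1 to 4. Myc-null 2 was 3.67-fold below Myc-null 3, while the group means were almost equal, with a difference of -0.14 (SE 0.45). Acsl4, which prefers arachidonate, measured 98.0, 148 and 41.8 in wild-type hearts and 124, 149, 166 and 178 in Myc-null 1 to 4. Here wild-type 3 was low and Myc-null 2 was not, and the difference was 0.69 (SE 0.31; limma adjusted p = 0.760). Wild-type 3 lay below the floor of 58.2 at which signals were held before log2, so the fold is understated. Without wild-type 3 the difference was 0.34. A further Acsl4 target was detected on 2 arrays, and Acsl3 on 0.

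Acss1 and Acss2 activate acetate, in the mitochondrion and in the cytosol and nucleus, and their means lay in opposite directions. Acss1 measured 384, 381 and 391 in wild-type hearts and 398, 427, 398 and 460 in Myc-null 1 to 4. It is the 1 tested member whose groups did not overlap, by a gap of 398 against 391, and the log2 difference was 0.13 (SE 0.09; limma adjusted p = 0.760). Acss2 measured 185, 228 and 227 in wild-type hearts and 176, 164, 211 and 167 in Myc-null 1 to 4. Myc-null 1, 2 and 4 lay below all wild-type arrays and Myc-null 3 between them, with a difference of -0.25 (SE 0.13; limma adjusted p = 0.760). That of Acss2 kept its sign in every alternative, from -0.35 to -0.16, and that of Acss1 too, from 0.05 to 0.15.

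Beta-oxidation and related dehydrogenases followed. Acadsb, which oxidises short branched acyl-CoA from isoleucine, had the smallest p of all members. It measured 524, 646 and 354 in wild-type hearts and 643, 848, 703 and 880 in Myc-null 1 to 4. Myc-null 1 lay just under wild-type 2 and the other 3 Myc-null arrays above every wild-type array. The log2 difference was 0.63 (SE 0.23, 95% interval 0.09 to 1.17; limma unadjusted p = 0.0281, adjusted p = 0.760), and 0.39 without wild-type 3. Acadsb was the member furthest from 0 in the authors' deposited table of difference scores, with a score of 18.4, followed in the authors' deposited table by Pfkfb3 with 11.1 and Hk1 with -10.4.

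Hadhb, the subunit of the trifunctional protein that holds its thiolase, measured 3831, 4949 and 3143 in wild-type hearts and 3975, 3540, 4406 and 5575 in Myc-null 1 to 4. The groups overlapped over most of their range and the difference was 0.14 (SE 0.21). Acad9, an acyl-CoA dehydrogenase that also assembles respiratory complex I, differed by 0.18, and its other target by 0.17, both lowest in wild-type 3. Acaa1a, the peroxisomal thiolase, differed by -0.13. Acadl, the long-chain acyl-CoA dehydrogenase, exceeded the floor on Myc-null 4 alone, at 74.8, so its difference of 0.09 rests on that array. Acsf2, Acsm5 and Cpt1c were detected on 1 array each, and Hadh, Acaa1b, Acsm2 and Acss3 on 0. The muscle and liver carnitine palmitoyltransferases had no target that could be named.

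The tested fat and sugar members separated on the arrays that stood apart, which the further genes of these pathways, given below, did not repeat. In wild-type 3 the median deviation of fat genes was -0.38 and that of sugar genes -0.01. In Myc-null 2 it was -0.06 for fat and -0.37 for sugar genes. In Myc-null 4 the sugar, TCA and fat medians were alike, 0.30, 0.30 and 0.30, which after quantile normalization became 0.07, 0.13 and 0.20. Wild-type 3 was the array least like the rest over all units, with correlations of 0.927 to 0.938 to the others, and it was lowest for 27.8% of units. It was lowest for 4 of 10 fat genes. The 7 mesenchymal genes with a target summed to 19055 in wild-type 3, against 12728 and 13991 in the other wild-type and 8219 to 15169 in the Myc-null hearts, with Postn detected on 0 arrays. Its members did not move together, since Eln and Col1a1 were highest in wild-type 3, at 11254 and 3505, and Vcan and Dcn lowest there, at 42.6 and 3129. Their part in these values was not tested.

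**Figure D4:**
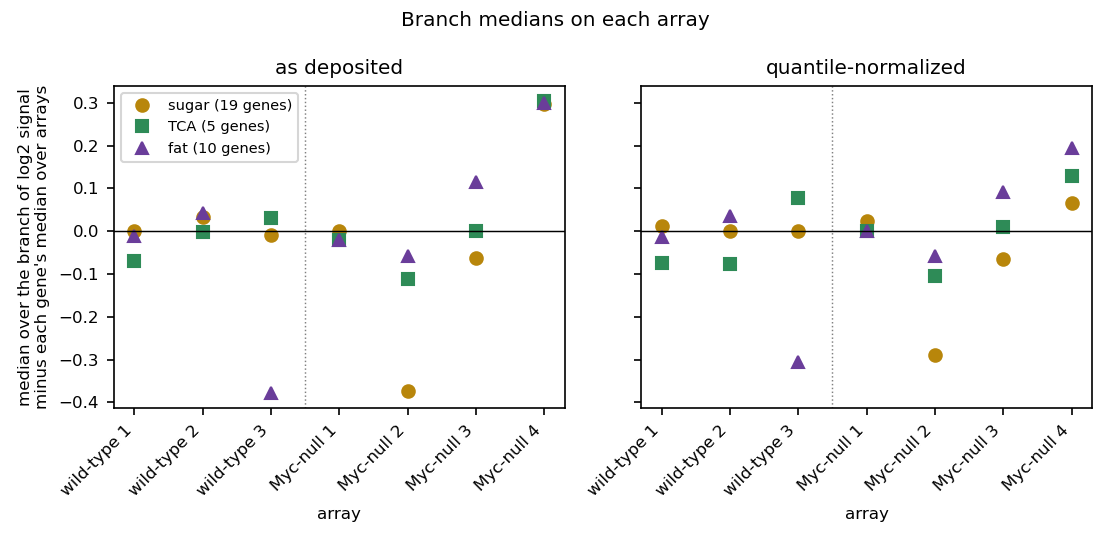
Median over each branch of the log2 signal minus the gene's median over arrays (vertical axis) on each array, as deposited on the left and after quantile normalization on the right, for 19 sugar, 5 TCA and 10 fat genes. The sugar median is lowest in Myc-null 2 and the fat median lowest in wild-type 3 in both panels, and the high medians of Myc-null 4 shrink after quantile normalization.

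Neighbouring genes of these pathways, listed with earlier results of these data known, also gave 0 calls. Of 47 further sugar genes 7 were tested, of which 2 were higher and 5 lower in Myc-null hearts, with a median log2 difference of -0.02. Pgd, of the pentose phosphate pathway, differed by -0.12. Of 32 further genes around the TCA cycle 10 were tested, 3 higher and 7 lower, with a median of -0.07. Acly, which makes cytosolic acetyl-CoA, differed by 0.20, and the dicarboxylate carrier gene Slc25a10 by -0.23. Of the genes seen only afterwards, Sdhb, Sdhc and Got2 were again lowest in Myc-null 2 and highest in Myc-null 4. Acly and Me2 went the other way and were highest in Myc-null 2. Of 46 further fat genes 13 were tested, 7 higher and 6 lower, with a median of 0.03. Pnpla2, the lipase that opens triglyceride breakdown, differed by -0.42 and the fatty acid elongase gene Elovl1 by -0.33. In the other direction, lipoprotein lipase (Lpl) differed by 0.86 and the elongase gene Elovl6 by 0.45. Both were chosen after their values were seen and were lowest in wild-type 3. Acaca, Hmgcs1 and Etfa were also lowest there, while Pnpla2, Mlycd, Scd2 and Fasn were highest there. In wild-type 3 the median deviation was 0.10 for these further fat genes and 0.14 for the further sugar genes. In Myc-null 2 it was -0.21 for further fat, 0.01 for further sugar and -0.33 for further TCA genes. Of 21 regulators only Egln1, Egln3 and Ppargc1b were tested, with differences of -0.27, -0.02 and -0.13, all 3 lowest in Myc-null 2, and Hif1a was detected on 0 arrays. Myc had 1 target, detected on 0 arrays, so the genotype labels have no check here.

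Because Myc binds the E-box CACGTG, RefSeq promoter windows (250 bases before to 50 after a start, GRCm38.p6) of the members were searched for these letters. The motif reads the same on both strands. Windows were found for 32 of the 35 tested genes. The motif was present in 4 of 18 sugar genes, Ldha, Pfkfb2, Pfkfb3 and Pfkm, in 1 of 4 TCA genes, Ogdh, and in 0 of 9 fat genes. Of all 27025 genes with windows 8.09% held it, and of the 2741 tested named genes with windows 11.9%. All 5 genes with the motif have more than 1 window, which gives them more chances to hold it. Ldha and Pfkfb3 have 2, Pfkfb2 3, Pfkm 4 and Ogdh 6. Counted by window, 4 of 31 sugar (12.9%), 3 of 10 TCA and 0 of 10 fat windows held it. Of the windows of all tested named genes 9.92% did. The TCA windows with the motif are all of Ogdh, and overlapping windows among them hold the same site, so this count overstates the sites. The sites of the sugar genes are printed to show the letters that define this group, 5′ to 3′ on the gene's strand, with the motif in capitals.
Ldha, site 145 bases before the start: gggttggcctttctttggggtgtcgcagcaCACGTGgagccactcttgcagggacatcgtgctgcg
Ldha, site 48 bases before the start: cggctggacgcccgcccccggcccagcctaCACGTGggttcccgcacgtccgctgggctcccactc
Pfkfb2, site 22 bases before a start: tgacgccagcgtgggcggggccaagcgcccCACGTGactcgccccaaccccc
Pfkfb3, site 53 bases before a start: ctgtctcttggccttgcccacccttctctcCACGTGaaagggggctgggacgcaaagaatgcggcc
Pfkm, site 136 bases before a start: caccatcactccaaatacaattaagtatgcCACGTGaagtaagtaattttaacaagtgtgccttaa

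The printed stretches lie at chr7:46845629-46845694 and chr7:46845726-46845791 on the plus strand (Ldha), chr1:130715822-130715873 on the minus strand (Pfkfb2), chr2:11502108-11502173 on the minus strand (Pfkfb3) and chr15:98092423-98092488 on the plus strand (Pfkm). Those of Ldha, Pfkfb2 and Pfkfb3 lie inside the annotated span of their gene, before an internal start, and that of Pfkm lies upstream of its gene. The 5 genes with the motif had log2 differences from -0.17 to 0.46, with a median of -0.08, and the 27 without it from -0.66 to 0.69, with a median of -0.04. Among them Ldha and Pfkm had lower and Pfkfb2 and Pfkfb3 higher Myc-null means, none of which passed the test.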

How the data were processed

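Total RNA of 3 wild-type and 4 Myc-null hearts was hybridised to Illumina mouse reference arrays, 1 sample per array, all on 1 chip. Per the file headers (BeadStudio 1.5.1.3), each array has a file of unnormalized signal intensity with a detection score, a fraction that is high where a target exceeds background. The authors deposited a matrix of signal intensity, rank-invariant normalized per the labels (BeadStudio 1.5.0.34 per the submitters' processing notes), which is a straight-line function of the raw signal (factors 0.809 to 1.43). The authors also deposited a difference score per target, with no direction named.

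The deposited matrix was used. A target was tested if its detection score reached 0.99 on 3 or more arrays, 9441 of 24048, with 4 bacterial controls left out. Signals were raised to a floor of 58.2 (each array's 5th percentile of detected targets, then the median of these) and put on the log2 scale, so fold changes of dim genes are understated. The brightest passing target stood for a gene, giving 9066 units. The identifier lookup matched 93.3% of numbers with 1 or 2 leading zeros in the reference gene table. limma 3.58.1 in R 4.3.3 compared the groups, 2-sided, with Benjamini-Hochberg adjustment over all units and a threshold of 0.05, and was tested on simulated data. The number of arrays limits the precision.

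Members and lists were chosen with earlier results of these data known. Genes given in full are, per branch, the 4 with the smallest p, the 2 brightest and any whose groups do not overlap. A few genes are not reported here singly, though the counts and medians include them. Alternatives covered scaling, floor, filter, target choice, single arrays and a replicate block. Same-numbered arrays did not deviate together (correlations 0.17, -0.26 and -0.31 for numbers 1, 2 and 3), so the numbers were not taken as pairs.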

Additional observations from a re-analysis of the deposited data

Results flagged for a closer look

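In 38 results the highest or lowest of the 4 Myc-null values was set against its neighbour by Dixon's test (critical value 0.829), and 4 results exceeded it, where chance gives about 1 in 20 for independent values. Eno3 had a log2 signal of 11.40 in Myc-null 2, while the remaining Myc-null hearts lay between 11.98 and 12.07. Myc-null 4 stood apart in the log2 signal of Mdh2, at 11.58 against 10.84 to 10.93, and of Acaa1a, at 10.90 against 10.39 to 10.46. It also stood apart in Acadl, at 6.23, where the remaining 3 were tied at the floor of 5.86, so that any value above the floor counts as apart.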

How the results depend on the processing

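Over 17 alternatives, 18 of the 35 genes kept the sign of their difference and 17 did not, and the smallest adjusted p of any member by limma was 0.574. The number of units with an adjusted p under 0.05 was 0 throughout. The sugar, pyruvate dehydrogenase, TCA and fat medians moved by less than their spread between replicates. The count of units with an unadjusted p under 0.05 ran from 311 to 718 when 1 array was left out (311 without Myc-null 2, 718 without wild-type 2). For members this count was 1, became 2 after quantile normalization and among targets detected on all 7 arrays, and 0 to 3 when 1 array was left out (0 without wild-type 3, 2 without Myc-null 3, 3 without wild-type 2 or Myc-null 4). The members counted also changed. Acadsb was not among them without wild-type 1 (Acss2 alone), Myc-null 2 (Pfkfb4 alone) or Myc-null 4 (Eno1, Ldha and Acaa1a). Without wild-type 3 and Myc-null 2 together, Pfkfb4 alone was counted. With the replicate number as a block the count of members was 0, and since number 4 has no wild-type partner this fit leaves out Myc-null 4 in effect. The cause was not tested. After quantile normalization, median scaling, neqc and with the replicate block, Pgam1 differed by -0.058, -0.046, -0.057 and -0.091, and Fabp3 by -0.023, -0.035, -0.023 and -0.13. Without wild-type 3 and Myc-null 2 together, the log2 difference was 0.14 for Gpihbp1, 0.026 for Eno3, 0.040 for Gpi1, 0.0088 for Ldha, 0.078 for Pkm, 0.038 for Ogdh, -0.058 for Idh1, 0.083 for Acsl1 and -0.061 for Acad9. The other Gapdh target, an alternative chosen after seeing the data, gave 0.019. Leaving out 1 array at a time gave ranges of -0.29 to 0.018 for Aldoa, -0.30 to 0.036 for Gpihbp1, -0.19 to 0.035 for Eno3, -0.19 to 0.057 for Eno2, -0.25 to 0.022 for Ldha, -0.19 to 0.054 for Tpi1, -0.19 to 0.035 for Gapdh, -0.13 to 0.089 for Pkm, -0.18 to 0.26 for Pgam1, -0.11 to 0.036 for Pdhb, -0.28 to 0.028 for Ogdh, -0.36 to 0.26 for Acsl1, -0.14 to 0.24 for Fabp3, -0.014 to 0.31 for Hadhb and -0.053 to 0.34 for Acad9. Sign changes in these ranges came without Myc-null 2 for Gpihbp1, Eno3, Eno2, Ldha, Tpi1, Gapdh, Pkm, Pdhb, Ogdh and Acsl1, without wild-type 2 for Aldoa, Tpi1, Gapdh and Acsl1, without wild-type 3 for Fabp3, Hadhb and Acad9, without wild-type 1 for Pkm and Pgam1, without Myc-null 4 for Pgam1 and Fabp3, without Myc-null 1 for Pkm and without Myc-null 3 for Fabp3. Pfkfb4 at a doubled floor, and Acadl without Myc-null 4 or with the replicate block, lay at the floor on all arrays used and gave no value. Dim genes near the floor, such as Acadl, Pfkfb4 and Acsl4, are limited most by background.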
